A study of Mus musculus with 4 samples.

Results

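Lamp5 inhibitory neurons of the mouse hippocampus were taken from single-nucleus RNA counts by a rule on 7 genes. A barcode counted as a Lamp5 nucleus with at least 500 detected genes, at least 3 UMIs of Gad1 and Gad2 together, at most 1 UMI of Slc17a7, at least 2 UMIs of Lamp5, at most 1 UMI of Sst, and 0 UMIs of Vip and of Pvalb. A UMI is a molecular tag that counts 1 captured RNA molecule. The rule found 652 nuclei among 60288 barcodes. Of these, 103 came from the wild-type library, 260 from the total knockout, 129 from the astrocyte knockout and 160 from the neuron knockout.

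Lamp5 interneurons are a family of GABA-releasing cells, and in the hippocampus the family holds the neurogliaform cells and the ivy cells. Neurogliaform cells of the outer layers carry Ndnf and Reln, release GABA as a diffuse cloud from dense axons, and act on GABA-A and GABA-B receptors of many neighbours. Ivy cells make nitric oxide through Nos1, carry the peptide Npy, and descend from the medial ganglionic eminence, whose interneurons keep the transcription factor Lhx6. The other Lamp5 cells descend mostly from the caudal eminence, whose interneurons carry Adarb2 and Prox1.

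The study compared mice that lack monoacylglycerol lipase (MAGL, the product of Mgll, which breaks down the endocannabinoid 2-arachidonoylglycerol) in the whole animal, in astrocytes or in neurons with wild-type mice. Its title concerns overabundant endocannabinoids in neurons and cognition. Each of the 4 genotypes has 1 library of hippocampal nuclei. The sources used here give no strain, age or number of animals, and no promoter or Cre line for the cell-specific knockouts.

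The total-knockout library stood apart from the others. It held 31243 of the barcodes, against 8945 to 10731 in the others, at a median of 5456 UMIs per barcode against 7448 to 8904. Scrublet, a doublet caller, marked 23.5% of its barcodes and 1.72% to 5.68% of those elsewhere. The caller was given an expected rate of 0.8% per 1000 barcodes, so the rate set for this library was the highest. Among the Lamp5 nuclei it marked 66 of 260 in the total-knockout library and 3 of 103, 7 of 129 and 2 of 160 in the wild-type, astrocyte and neuron libraries. By Xist and Y-linked RNA the Lamp5 nuclei of the total-knockout library held 246 male and no female nuclei, and the other libraries held both sexes (40 male and 57 female, 51 and 60, and 76 and 79). Nuclei marked as doublets stayed in the main analysis, and values without them are given beside the Mgll and Npy ratios and the counts of genes past 2-fold. Pairs of libraries shared 108 to 466 barcode sequences, and 46 Lamp5 nuclei had a barcode that was also in another library. None shared it with a Lamp5 nucleus of that library.

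Median depth of a Lamp5 nucleus was 9761 UMIs in wild type, 6371 in the total knockout, 7208 in the astrocyte knockout and 8740.5 in the neuron knockout. Summed over its Lamp5 nuclei, each library gave 1043600, 1870340, 1010375 and 1489075 UMIs in the same order, called library order from here on. Levels below are CPM, the UMIs of a gene per 1000000 UMIs of the class in that library. Lamp5 itself, a LAMP-family membrane protein and the gene that chose the nuclei, stood at 348, 385, 402 and 348 CPM. Many nuclei lay at the limit on it: 39 of 103, 144 of 260, 54 of 129 and 72 of 160 held exactly 2 Lamp5 UMIs, and the highest count in a nucleus was 10, 10, 9 and 12.

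The nuclei were then compared with the nuclei next to them at the limit. Nuclei with 0 Lamp5 UMIs that met every other part of the rule served as the comparison class throughout (298, 1517, 463 and 443 nuclei). In the wild-type library Npy stood at 109 CPM in nuclei with 0 Lamp5 UMIs, 315 with 1, 405 with 2 and 782 with 3 or more. In the total knockout it stood at 49.8, 147, 288 and 267 CPM. Cacna2d1 stood at 386, 1801, 2123 and 2872 CPM in wild type. In wild type the nuclei just outside the limit lay between the comparison class and the Lamp5 nuclei for both genes. This order did not hold for every gene and library: Npy in the astrocyte knockout stood at 268 CPM with 1 Lamp5 UMI and 177 with 2, Ndnf in the neuron knockout at 122 and 74.2, and Reln in wild type at 1479 and 1380. The Lamp5-zero class holds several kinds of inhibitory nuclei and is no cell type of its own.

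Genes known for neurogliaform and ivy cells were higher in Lamp5 nuclei than in Lamp5-zero nuclei. Of 11 such genes 10 could be tested, and all 10 rose in edgeR's quasi-likelihood test, with a median log2 fold change of 2.16 against -0.01 over the 11752 genes tested. The test used UMIs summed per library and class, 4 libraries against the same 4, with the library as a block and p-values adjusted by Benjamini-Hochberg. Across all genes 895 (7.62%) were higher and 1227 (10.4%) were lower at an adjusted p under 0.05. With the library as a block, the p-values measure how the class difference varied between 4 libraries that also differ in genotype. In summed counts, a change in the kinds of cells in a class and a change in RNA per cell cannot be told apart.

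Npy, a peptide that damps transmitter release, stood at 644, 279, 387 and 304 CPM in Lamp5 nuclei in library order and at 109, 49.8, 94.3 and 84.8 CPM in Lamp5-zero nuclei. Every Lamp5 value lay above every Lamp5-zero value, and the fitted difference was 2.26 (SE 0.11, adjusted p = 1.59e-08, higher in 4 of 4 libraries). Ndnf, a secreted protein named for outer-layer neurogliaform cells, stood at 297, 171, 170 and 103 CPM against 127, 59.9, 93.5 and 119. The groups overlapped, since the neuron-knockout library had slightly less Ndnf in its Lamp5 nuclei than in its Lamp5-zero nuclei, and the fitted difference was 0.91 (SE 0.19, adjusted p = 0.0033, higher in 3 of 4 libraries). A UMI of Ndnf was present in 38.8%, 30%, 29.5% and 21.9% of Lamp5 nuclei and in 0.715%, 1.44%, 0.679% and 0.718% of excitatory nuclei, which should lack it, at excitatory median depths of 12039.5, 8846, 10037 and 11203 UMIs. Npy had a UMI in 63.1%, 48.5%, 70.5% and 64.4% of Lamp5 nuclei and in 0.715%, 0.674%, 1.05% and 1.82% of excitatory nuclei. Both markers given with the label were thus above this background in every library, Ndnf in a minority of the nuclei.

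Among the other genes of the list, Cacna2d1, an auxiliary subunit of voltage-gated calcium channels, stood at 2597, 2119, 2870 and 2522 CPM against 386, 517, 448 and 279. Its fitted difference was 2.68 (SE 0.14, adjusted p = 3.48e-08), with no overlap between the classes. Reln, the secreted matrix protein reelin, stood at 1546, 1478, 1630 and 933 CPM against 611, 483, 482 and 483, a difference of 1.44 (SE 0.11). Nos1, the neuronal nitric oxide synthase, stood at 130, 102, 121 and 173 CPM against 13.5, 24.0, 24.7 and 17.9, a difference of 2.66 (SE 0.18). The receptor tyrosine kinase gene Kit (2.55), the vesicle protein gene Sv2c (2.20), the transcriptional inhibitor gene Id2 (2.13), the coactivator gene Eya4 (1.51) and Gabrd (0.90), which encodes a subunit of extrasynaptic GABA-A receptors, rose in the same test.

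**Figure D1:**
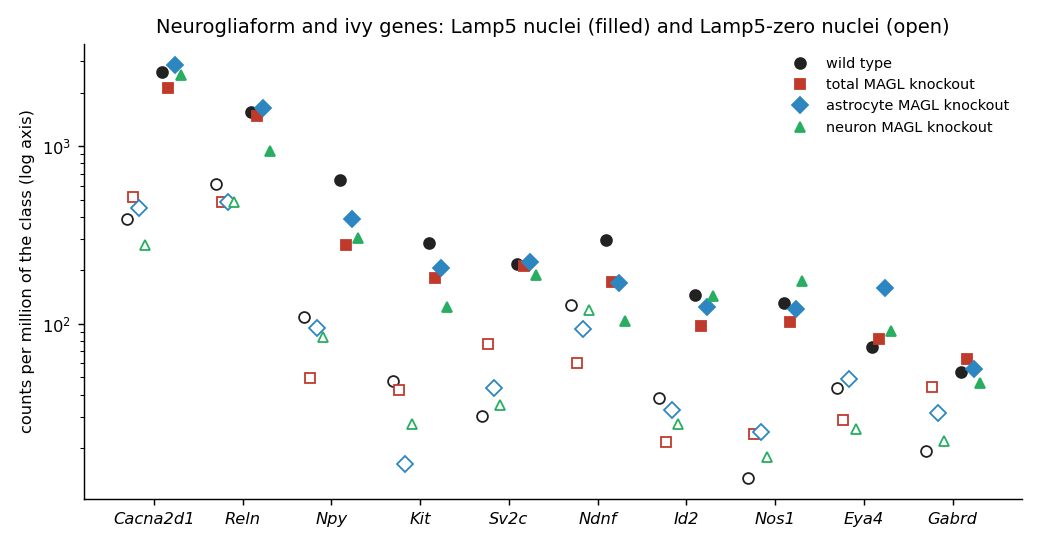
Levels of the 10 tested neurogliaform and ivy genes in CPM (vertical log axis) in Lamp5 nuclei (filled) and Lamp5-zero nuclei (open), 1 point per library. Filled points lie above open points of the same library for every gene except Ndnf in the neuron-knockout library, at 103 against 119 CPM.

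Markers of other cell types were summed over lists to see what else the Lamp5 nuclei hold. Excitatory markers summed to 198, 325, 228 and 234 CPM, below the Lamp5-zero sums in the same libraries of 304, 391, 363 and 391. Oligodendrocyte markers, Mbp and Mog among them, summed to 80.5, 221, 9.90 and 30.9 CPM, highest in the total-knockout library. Lateral eminence factors, which mark striatal and olfactory neurons, summed to 89.1, 289, 74.2 and 101 CPM, again highest there. Vascular markers summed to 57.4 CPM in the astrocyte-knockout library and to 1.92 to 4.81 CPM elsewhere. Medium spiny neuron markers summed to 1263, 1194, 1241 and 1022 CPM, nearly all of it from Pde10a (1211, 1060, 1224 and 1014 CPM). Astrocyte markers lay at 94.7 to 122 CPM and microglia markers at 45.5 to 65.2 CPM. Somatostatin cell markers other than Sst, which the rule uses, summed to 243, 185, 259 and 212 CPM, with Chodl at 0. CCK cell markers summed to 369, 334, 296 and 357 CPM, with Krt73 at 0. Choroid plexus markers summed to 2.88, 25.1, 0.99 and 4.70 CPM, with Folr1 at 0. These sums move between libraries, and their part in the differences between libraries given below was not tested.

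The transcription factors of both eminences were mixed in Lamp5 nuclei. Of 6 medial eminence factors 4 were higher than in Lamp5-zero nuclei and 2 were lower (median 0.83). Lhx6 stood at 46.0, 33.2, 47.5 and 51.0 CPM against 16.4, 17.0, 22.6 and 12.9, a difference of 1.37 (SE 0.17, adjusted p = 5.16e-05). Nkx2-1, which acts upstream of Lhx6, rose by 2.10 and Maf by 0.72. Satb1 and Sox6, which act downstream of Lhx6 in somatostatin and parvalbumin cells, were lower: Satb1 stood at 2.88, 28.3, 7.92 and 7.39 CPM against 125, 131, 137 and 159 (-3.35, SE 0.27), and Sox6 differed by -2.35. Of 4 caudal eminence factors tested, Prox1 was higher (1.09) and Npas1 (-3.61), Adarb2 (-1.10) and Nr2f2 (-0.65) were lower. Adarb2 still stood at 4221, 3796, 3467 and 3130 CPM in Lamp5 nuclei.

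Receptors for GABA split by subunit. Of 14 tested, 6 rose and 4 fell, with a median of 0.16. This list and those that follow stand beside 7.62% of all genes higher and 10.4% lower. Higher were Gabbr2 (1.41, SE 0.077), a GABA-B receptor subunit, and among others the GABA-A subunit genes Gabrb2 (1.19), Gabrg3 (1.10), Gabrd (0.90) and Gabra5 (0.88). Lower were Gabrg1 (-1.70), Gabra2 (-1.11), Gabra3 (-0.76) and Gabrb1 (-0.65). Gabbr2 stood at 775, 701, 861 and 770 CPM against 284, 302, 317 and 280, so the 4 libraries of each class lay close together and apart from the other class. Of 7 genes for handling GABA, 2 rose, among them the transporter gene Slc6a11 (0.95), and Slc12a2 (-0.42) and Abat (-0.34), the enzyme that degrades GABA, fell.

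Of 17 glutamate receptor genes tested 5 rose and 8 fell (median -0.08). Grin2a, an NMDA receptor subunit of mature synapses, stood at 2353, 2399, 3224 and 2537 CPM against 647, 791, 765 and 527 (1.97, SE 0.10), while Grin2b fell by 0.46. The kainate receptor genes Grik1 (1.10) and Grik2 (0.51) rose and Grik3 (-1.84) fell. Among metabotropic receptor genes Grm8 fell by 2.01, Grm7 by 1.51 and Grm3 by 0.72.

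Of 16 receptors for neuromodulators tested, 6 rose and 8 fell (median -0.48). Hcrtr2, an orexin receptor, stood at 249, 198, 274 and 302 CPM against 45.8, 31.8, 37.2 and 32.4 (2.82, SE 0.11, adjusted p = 3.59e-09). The adrenergic receptor gene Adra1a rose by 1.74, the nicotinic receptor gene Chrna7 by 1.19, the opioid receptor gene Oprm1 by 0.93 and the serotonin receptor gene Htr2a by 0.87. Htr3a, the serotonin-gated channel of many caudal eminence interneurons, stood at 3.83, 5.35, 1.98 and 5.37 CPM against 39.0, 18.9, 18.3 and 43.7 (-2.69, SE 0.25), and Htr2c (-2.10) and Chrm3 (-1.45) were also lower. Of 9 neuropeptide genes tested 6 fell (median -1.43), and Npy and Pnoc (1.40), which encodes nociceptin, rose.

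In the endocannabinoid list 3 of 11 tested genes rose and 1 fell (median 0.11), beside 7.62% of all genes higher and 10.4% lower. Mgll was higher in Lamp5 nuclei in every library, at 289, 242, 325 and 268 CPM against 116, 103, 121 and 87.3 (1.42, SE 0.083, adjusted p = 7.00e-08). Cnr1, the cannabinoid receptor of inhibitory terminals, was lower, at 152, 167, 108 and 112 CPM against 803, 499, 627 and 810 (-2.29, SE 0.15). Abhd6, another enzyme that degrades 2-arachidonoylglycerol, rose by 0.49 and Gde1 by 0.34. The lower Cnr1 came with lower Cck (-0.82) and Slc17a8 (-5.64), which encodes a glutamate transporter of CCK cells. CCK markers summed to 296 to 369 CPM in Lamp5 nuclei and to 758 to 1371 CPM in Lamp5-zero nuclei. These sums include Cnr1 itself, at 499 to 810 CPM in Lamp5-zero nuclei, so they largely repeat its difference. The part of CCK cells in the differences between the classes was not tested.

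Of 7 matrix genes tested 4 rose and 1 fell (median 0.91), Reln and Ndnf of the first list among those that rose. Vcan, the proteoglycan versican, stood at 414, 284, 375 and 408 CPM against 48.4, 56.1, 63.5 and 39.3 (2.83, SE 0.14). Hapln1, a link protein that ties such proteoglycans to hyaluronan, stood at 293, 254, 315 and 412 CPM against 47.1, 41.6, 61.6 and 44.4 (2.73, SE 0.12). Bcan fell by 2.06. Of 13 potassium and HCN channel genes 1 rose, 4 fell, Kcnc2 (-1.48) among them, and 8 did not pass (median -0.10), beside the 7.62% of all genes that were higher and 10.4% lower. None of 3 gap junction genes tested passed, in either direction, in edgeR's test. Of 7 genes of nitric oxide signalling Nos1 rose and Gucy1a1 (-1.03) and Prkg2 (-2.44), which act in cells that receive nitric oxide, fell. Of 9 immediate early genes 1 rose and 4 fell (median -0.59), and the 1 that rose is near the share over all genes.

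Beyond the lists, the 12 genes with the largest fold change in each direction were taken among those that passed and lay on the same side in all 4 libraries. Higher were Has2os (3.15), Egfr (2.98), C87487, Popdc3 (2.88), Vcan, Crispld1 (2.82), Hcrtr2, Pde11a (2.80), Car4, Hapln1, Cacna2d1 and Nmbr (2.66). Egfr, the receptor for epidermal growth factor, stood at 497, 325, 398 and 353 CPM against 61.6, 56.0, 38.8 and 42.4. Pde11a, an enzyme that degrades cyclic nucleotides, stood at 723, 603, 799 and 899 CPM against 106, 107, 136 and 89.7. Has2os is antisense to Has2, and the sources used here do not say whether counting used strand. Among the lower were Calca, Slc17a8, Klhl14, Tnc, Crh, Clic6, Egln3, Adamtsl5, Cadps2, Prss23 and Lama3. Cadps2, a factor for release from dense-core vesicles, stood at 32.6, 78.6, 60.4 and 8.73 CPM against 786, 608, 634 and 1044 (-4.05, SE 0.35). Calca, the gene of calcitonin and its related peptide, had 1 UMI in all Lamp5 nuclei and 271 in the Lamp5-zero nuclei, a ratio of 66.1 with a 95% counting interval of 11.8 to 2622. None of the 24 genes taken by this rule lost its call in an alternative in which it could be tested, which the choice of the largest folds makes likely. After thinning 15 of them could be tested, with at least 5 Gad1 and Gad2 UMIs 19, and with at least 3 Lamp5 UMIs 21.

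**Figure D2:**
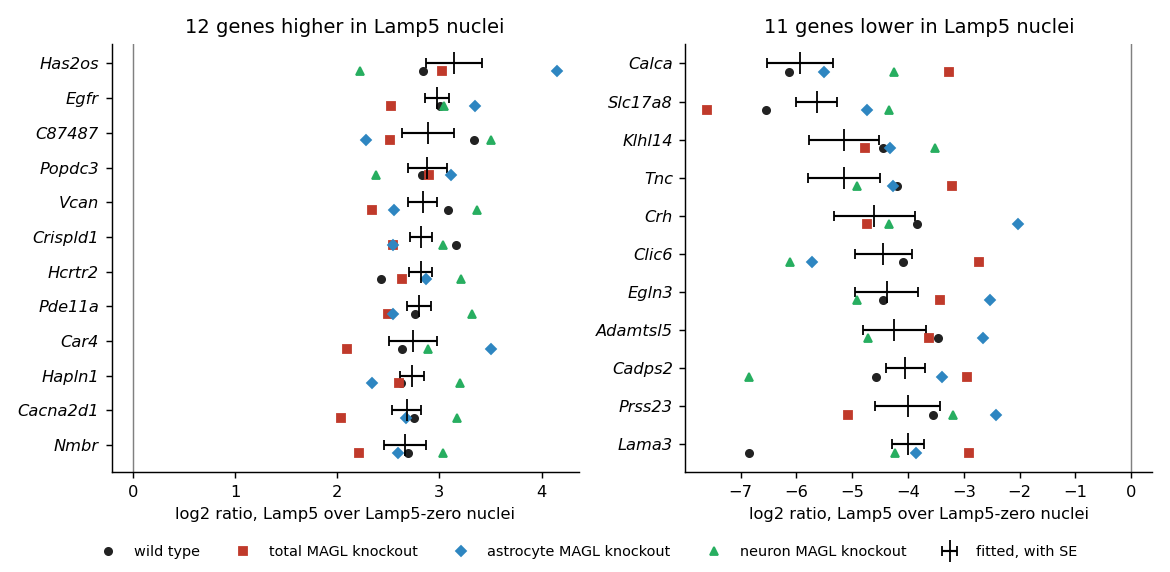
Log2 ratio of CPM, Lamp5 over Lamp5-zero nuclei, for the 12 genes most raised (left) and 11 of the 12 most lowered (right). Coloured points are the 4 libraries, black bars the fitted value with its standard error. All points lie on the same side of 0, and fitted values run from 2.66 to 3.15 on the left and from -5.94 to -4.00 on the right. Fitted values and library ratios use different prior counts and part for genes with few UMIs.

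The next comparison set the Lamp5 nuclei between somatostatin and Vip nuclei, a type each of the medial and caudal eminence (1587 and 392 nuclei, chosen by at least 2 UMIs of Sst or Vip with 0 of Lamp5). Against somatostatin nuclei 1223 of 10131 genes (12.1%) were higher and 1236 (12.2%) lower. Against Vip nuclei 845 (8.34%) were higher and 1002 (9.89%) lower. The neurogliaform and ivy list was higher against both: 9 of 10 tested against somatostatin nuclei (median 2.79) and 10 of 10 against Vip nuclei (median 3.42). Npy was the member that did not pass against somatostatin nuclei, which carry it too.

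Lhx6 and its partners separated the types in part. Lhx6 had 234 UMIs in Lamp5 nuclei and 0 in Vip nuclei, so it was at least 39.9-fold higher, taking 3 counts over the 4 libraries as the limit. Against somatostatin nuclei 0 of 5 medial factors tested rose, Satb1 (-5.06, SE 0.28) and Sox6 (-3.81, SE 0.30) fell, and the remaining 3, Lhx6 and Maf among them, did not pass. Against Vip nuclei 3 of 5 rose, among them Lhx6 and Maf (0.32), and Satb1 fell by 1.79. Of the caudal factors, Adarb2 was higher than in somatostatin nuclei (3.56) and lower than in Vip nuclei (-2.40), and so was Prox1 (3.55 and -1.73). Npas1 was lower than in both (-2.69 and -4.36), and Nr2f2 was lower than in Vip nuclei (-1.59).

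**Figure D3:**
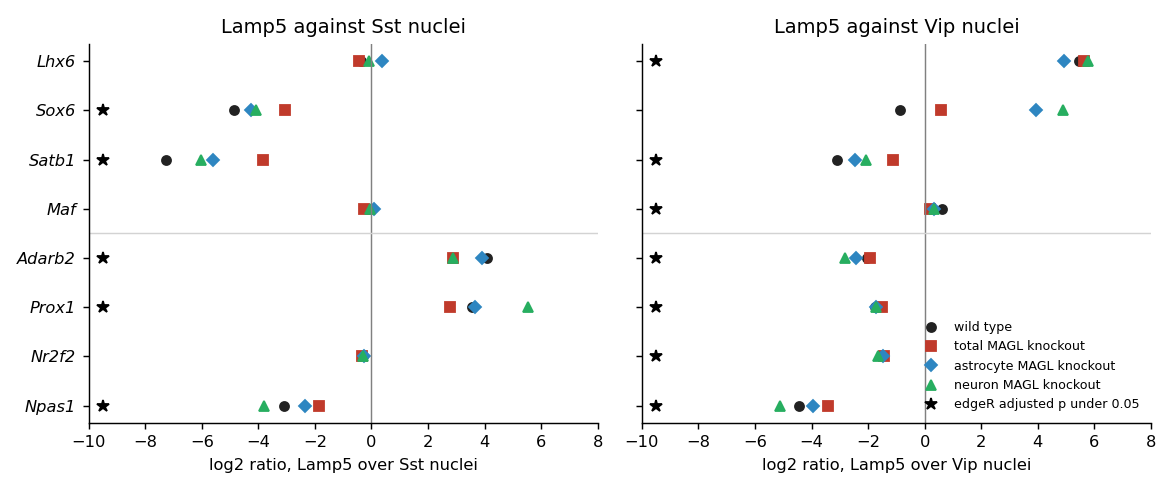
Log2 ratio of CPM for 4 medial (above the line) and 4 caudal (below it) eminence factors, Lamp5 over somatostatin nuclei (left) and over Vip nuclei (right), 1 point per library. Stars at the left edge mark an edgeR adjusted p under 0.05. Adarb2 and Prox1 lie right of 0 against somatostatin nuclei and left of 0 against Vip nuclei in all 4 libraries.

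Against somatostatin nuclei the leading genes were Pde11a (6.70, SE 0.23), Egfr (6.22, SE 0.19), Mctp2 (5.57), Cacna2d1 (5.41), Kit (5.33), the guidance cue Sema3c (4.89) and Id2 (4.71) among the higher, and Crhbp (-6.31), Elfn1 (-5.71), Satb1 and Synpr (-4.54) among the lower. Pde11a stood at 2.04, 12, 6.54 and 6.19 CPM in somatostatin nuclei. Elfn1, which sets the strength of excitatory input at its synapses, stood at 0.958, 2.67, 3.96 and 4.03 CPM in Lamp5 nuclei against 156, 154, 145 and 191. Gna14 had 0 UMIs in Lamp5 nuclei and 597 in somatostatin nuclei, at least 74.1-fold lower by the same limit. GABA receptor genes were higher for 8 of 14 and lower for 2 (median 0.80), with Gabra5 (2.31), Gabrg3 (2.01) and Gabrd (1.97) among the higher. Glutamate receptor genes were lower for 11 of 17 and higher for 3 (median -0.39), with Grik3 (-3.23) and Grm7 (-2.25) among the lower. The medians over all genes in these comparisons were 0.00.

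Against Vip nuclei the leading higher genes were Lhx6, Col5a2, C87487, Hapln1 (5.58, SE 0.21), Tgfbr2, Crispld1 (5.25), Sfta3-ps, Nxph1 (5.18), Ndnf (4.90), Prlr (4.90), Vcan (4.71) and Mctp2 (4.68). Nxph1, a secreted ligand of neurexins, stood at 3351, 2653, 3388 and 2972 CPM in Lamp5 nuclei against 38.1, 138, 0 and 106. The lower genes included the peptide genes Crh and Tac2 (-5.72), the calcium-binding protein gene Calb2, the synaptic vesicle gene Synpr (-5.54) and Elfn1 (-5.37). Of 8 immediate early genes 6 were lower than in Vip nuclei (median -1.61), Fos by 3.00, Egr1 by 2.47 and Npas4 by 1.75, and none was higher. Glutamate receptor genes were higher for 7 and lower for 6 of 17, with the AMPA receptor gene Gria1 up by 1.61 and Grin2a by 2.73.

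Mgll was higher in Lamp5 nuclei than in both types, by 1.78 against somatostatin nuclei (SE 0.089, adjusted p = 6.30e-12) and by 1.47 against Vip nuclei (SE 0.11, adjusted p = 2.98e-09). Somatostatin nuclei held 84.8, 77.0, 78.8 and 92.9 CPM and Vip nuclei 101, 90.4, 109 and 90.3 CPM, all below the lowest Lamp5 value of 242. Abhd6 was higher against both as well (0.88 and 0.79). Cnr1 was lower than in Vip nuclei by 2.73 and did not pass against somatostatin nuclei.

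The Lamp5 nuclei were then split by Lhx6, the factor of the medial eminence lineage, which the rule does not use. At least 2 Lhx6 UMIs were present in 11 of 103 nuclei (10.7%, 95% Clopper-Pearson interval 5.45 to 18.3), 10 of 260 (3.85%, 1.86 to 6.96), 10 of 129 (7.75%, 3.78 to 13.8) and 14 of 160 (8.75%, 4.87 to 14.2). Another 130 nuclei held 1 Lhx6 UMI and 477 held none. The intervals overlap between all pairs of libraries and cover counting error only. Lhx6-positive nuclei, those with at least 2 UMIs, were deeper (median 12695, 8686.5, 10135.5 and 9241.5 UMIs) than those with 0 (9360, 6170, 7208 and 8561), and the limit is itself in UMIs. By Xist and Y-linked RNA 1, 10, 4 and 7 of them were male and 9, 0, 4 and 7 female. In excitatory nuclei a UMI of Lhx6 was present in at most 0.192%.

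Ndnf and Lhx6 were rarely found in the same nucleus. An Ndnf UMI was present in 0 of 11, 2 of 10, 0 of 10 and 0 of 14 Lhx6-positive nuclei, and in 40 of 73 (54.8%), 74 of 209 (35.4%), 37 of 91 (40.7%) and 33 of 104 (31.7%) nuclei with 0 Lhx6 UMIs. Nuclei with 1 Lhx6 UMI resembled the first set, with Ndnf in 0 of 19, 2 of 41, 1 of 28 and 2 of 42. Nuclei were also thinned to 3000 UMIs, with the Lhx6 groups kept as set at full depth, so the grouping itself still depends on depth. Ndnf remained in 34 of 73 (46.6%), 52 of 198 (26.3%), 29 of 91 (31.9%) and 21 of 102 (20.6%) of the nuclei with 0 Lhx6 UMIs. It was then found in 0, 1, 0 and 0 of the Lhx6-positive ones. The thinned intervals of these 2 sets lay apart in wild type (0 to 28.5 against 34.8 to 58.6) and overlapped in each knockout library. For nuclei with 1 Lhx6 UMI the thinned Ndnf interval lay below that of nuclei with 0 in every library. A count of 0 in 11 nuclei allows a share of up to 28.5% (Clopper-Pearson). Nos1 was found after thinning in 36.4%, 40%, 30% and 50% of Lhx6-positive nuclei and in 27.4%, 20.2%, 27.5% and 24.5% of those with 0 Lhx6 UMIs, with overlapping intervals in every library. Nuclei with 1 Lhx6 UMI stood at 38.9%, 26.8%, 28.6% and 61.9%, with intervals that overlapped those of the nuclei with 0 except in the neuron knockout (45.6 to 76.4 against 16.5 to 34.0). Excitatory nuclei, at their full depth, held a UMI of Nos1 in 20.0%, 17.4%, 25.3% and 19.7% and a level of 21.7, 24.0, 35.7 and 23.0 CPM. These depths differ, so the shares are not compared with those of the thinned Lamp5 nuclei.

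**Figure D4:**
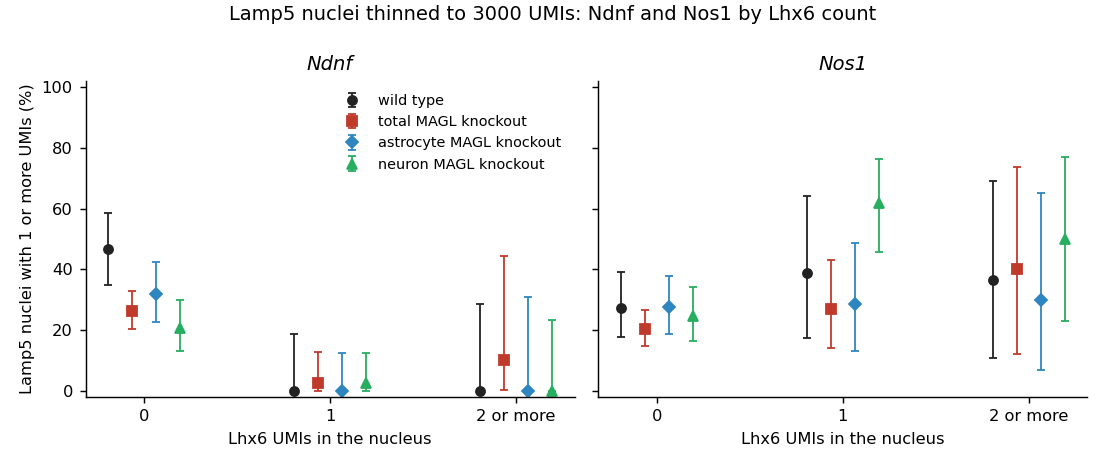
Share of Lamp5 nuclei with at least 1 UMI of Ndnf (left) or Nos1 (right), in percent, after thinning to 3000 UMIs. Nuclei are grouped by their Lhx6 UMIs before thinning, so the grouping still depends on depth. Points are the 4 libraries and bars are 95% Clopper-Pearson intervals. Ndnf lies at 20.6% to 46.6% without Lhx6 and at 0% to 10% with 2 or more Lhx6 UMIs. The Ndnf intervals of these 2 sets lie apart in wild type and overlap in each knockout library. The Nos1 intervals of the same 2 sets overlap in every library.

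A paired edgeR test of Lhx6-positive against Lhx6-zero Lamp5 nuclei, 4 sums against 4, called 44 of 6089 genes (0.723%) higher and 50 (0.821%) lower. It rests on 45 Lhx6-positive nuclei with 98058 to 145715 UMIs per library. Of the neurogliaform and ivy list, Nos1 and Eya4 rose, Reln, Kit, Npy, Ndnf and Sv2c fell, and 3 did not pass, with a median of -0.49 against -0.0001 over all genes. Of these 7 calls, those of Nos1, Eya4, Reln, Npy, Ndnf and Sv2c were each lost under at least 1 alternative. The list was chosen with earlier results of these data known.

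Higher in Lhx6-positive nuclei were the metalloprotease gene Tll1 (2.34, SE 0.28, adjusted p = 0.00018), the lipid phosphatase gene Inpp4b (2.05, SE 0.23) and Eya4 (1.89, SE 0.20). Eya4 stood at 199, 194, 430 and 207 CPM against 43.3, 67.9, 104 and 67.9, with no overlap. The Eya4 call was lost with at least 3 Lamp5 UMIs (1.06). Nos1 stood at 247, 173, 140 and 339 CPM against 86.6, 90.3, 103 and 122 (1.22, SE 0.21, adjusted p = 0.0055). The Nos1 call was lost after thinning (0.87) and without the neuron-knockout library (1.07). The neurexin-family gene Cntnap4 (1.26), the phosphodiesterase gene Pde4d (1.04) and the AMPA receptor gene Gria1 (0.79) also rose, and the Gria1 call was lost without the wild-type (0.63), total-knockout (0.71) or neuron-knockout (0.87) library.

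Lower in Lhx6-positive nuclei were Ntng1 (-4.81, SE 0.40, adjusted p = 2.11e-06), Sema3e (-3.98), Kit (-3.68), the muscarinic receptor gene Chrm2 (-2.75) and Adarb2 (-2.39). Ntng1, a surface protein that guides synapse formation, stood at 0, 0, 10.0 and 41.5 CPM against 424, 300.03, 192 and 629. Kit stood at 0, 71.4, 30.0 and 0 CPM against 430, 225, 288 and 191. Adarb2 stood at 508, 3060, 160 and 1086 CPM against 5726, 4322, 4199 and 4138, with the total-knockout library nearest to its Lhx6-zero level. With no library block the calls of Chrm2 (-2.78) and Adarb2 (-1.90) were lost, and with at least 3 Lamp5 UMIs that of Chrm2 (-1.55).

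Reln (-1.11), Npy (-0.99) and Sv2c (-1.35) were lower as well. All 3 calls were lost without the wild-type library (-0.93, -0.82 and -1.11) and with no library block (-1.06, -1.01 and -1.33). Reln (-0.79) and Npy (-0.98) also lost theirs without the astrocyte library, and Npy (-0.79) and Sv2c (-1.12) after thinning. Npy stood at 309, 184, 210 and 207 CPM in Lhx6-positive nuclei against 850, 312, 442 and 348, so it was present on both sides of the split. The share of nuclei with an Npy UMI went the other way, at 81.8%, 70%, 90% and 78.6% of Lhx6-positive nuclei and 61.6%, 47.8%, 70.3% and 62.5% of those with 0 Lhx6 UMIs, which were shallower. After thinning it was 36.4%, 40%, 40% and 78.6% against 52.1%, 37.4%, 52.7% and 40.2%. The intervals of the thinned shares overlapped in every library, and no order is read from the shares. The fitted change of Ndnf was -2.73 (SE 0.62, adjusted p = 0.031), from 18 UMIs, all in the total-knockout library, against 931. Without the total-knockout library all Lhx6-positive nuclei were at 0 for Ndnf, and the call for it was lost without the wild-type (-1.89), astrocyte (-2.40) or neuron library (-2.42), with DESeq2 (-6.28) and with no library block (-2.72). Of the 24 leading genes of this comparison 13 lost their call under at least 1 alternative.

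Lamp5 nuclei made up 10.5% of inhibitory nuclei in wild type (95% Clopper-Pearson interval 8.62 to 12.6), 7.73% in the total knockout (6.85 to 8.68), 10.6% in the astrocyte knockout (8.96 to 12.5) and 12.3% in the neuron knockout (10.6 to 14.2). Inhibitory nuclei here are those that meet the limits on detected genes, Gad1 with Gad2, and Slc17a7 (984, 3364, 1213 and 1301). The total-knockout share lay below the others, and the rule counts UMIs while that library was the shallowest. With every nucleus thinned to 3000 UMIs and the rule applied again, the shares were 6.92% (27 of 390), 5.89% (84 of 1427), 8.82% (48 of 544) and 8.01% (41 of 512). Left out as shallower were 17, 136, 17 and 12 inhibitory nuclei. The limits on Gad1 with Gad2 and on Slc17a7 were also applied to the thinned counts, so far fewer nuclei counted as inhibitory. The wild-type interval after thinning, 4.61% to 9.91%, rests on 27 Lamp5 nuclei and held the total-knockout share. A lower share than in wild type was thus not detectable at equal depth with these numbers. The thinned neuron-knockout interval, 5.81% to 10.7%, held it too, and the astrocyte-knockout interval, 6.58% to 11.5%, did not, while the interval of the total knockout itself, 4.72% to 7.24%, overlapped all 3. The order also turned with the limit on Lamp5: with at least 1 UMI the share was 17.7% in the total knockout against 15.4% in wild type, and with at least 3 it was 3.45% against 6.50%. Each genotype is a single library, so the shares and ratios that follow have no replicate check and no test. Intervals cover counting error only.

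Mgll, the targeted gene, was present in the Lamp5 nuclei of every library, with 302, 452, 328 and 399 UMIs. On the log2 scale it differed from wild type by -0.26 (95% interval -0.47 to -0.04) in the total knockout, 0.17 (-0.06 to 0.40) in the astrocyte knockout and -0.11 (-0.33 to 0.11) in the neuron knockout. After thinning the total-knockout ratio was -0.05 (-0.42 to 0.32), and without doublets and nuclei over 5% mitochondrial it was -0.06 (-0.28 to 0.17). The sources used here do not say which exons the knockouts lack, so RNA counted over the whole gene does not check the labels. Among male nuclei alone the differences were -0.55 (-0.83 to -0.26), -0.12 (-0.47 to 0.24) and -0.35 (-0.67 to -0.03).

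Of 6981 genes with at least 100 UMIs in the Lamp5 nuclei, 174 (2.49%) lay past 2-fold of wild type in the total knockout, 143 (2.05%) in the astrocyte knockout and 170 (2.44%) in the neuron knockout. Higher and lower genes numbered 116 and 58, 41 and 102, and 52 and 118. In male nuclei only they numbered 156 and 41, 102 and 154, and 114 and 118 of 5180 genes. Without doublets and nuclei over 5% mitochondrial, the total-knockout numbers were 58 higher and 62 lower of 6380 genes. The 3 comparisons share the wild-type library. Between knockouts the counts were 179 (2.56%, 147 higher and 32 lower) for total against astrocyte and 177 (2.54%, 136 and 41) for total against neuron. For astrocyte against neuron the count was 120 (1.72%, 61 and 59), below each comparison with wild type. None of the 9 endocannabinoid genes and none of the 13 GABA receptor genes measured here was past 2-fold of wild type in any knockout library. At shares of 2.05% to 2.49% over all genes, lists this short can easily hold none, so no lack of change is read from this.

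Npy and Ndnf differed between libraries. Npy was highest in wild type, with log2 ratios of -1.21 (-1.38 to -1.04) in the total knockout, -0.73 (-0.92 to -0.55) in the astrocyte knockout and -1.08 (-1.26 to -0.91) in the neuron knockout. Without doublets and nuclei over 5% mitochondrial the total-knockout ratio was -0.94 (-1.12 to -0.76), no longer past 2-fold. The Lamp5-zero nuclei of the total knockout held less Npy too (-1.13, -1.33 to -0.93), and those of the neuron knockout differed less (-0.36, -0.58 to -0.15). Ndnf was lowest in the neuron knockout, at 103 CPM against 297 in wild type (-1.52, -1.81 to -1.24, and -1.16 in male nuclei only). Its ratios in the total and astrocyte knockouts were -0.79 (-1.03 to -0.57) and -0.80 (-1.08 to -0.53), so both markers were below wild type in all 3 knockout libraries, which share that 1 wild-type library. Among Lamp5 nuclei with 0 Lhx6 UMIs alone the Ndnf ratios were -1.14 (-1.38 to -0.91) in the total, -0.89 (-1.17 to -0.62) in the astrocyte and -1.47 (-1.76 to -1.19) in the neuron knockout. In Lamp5-zero nuclei they were -1.09 (-1.27 to -0.90), -0.44 (-0.66 to -0.23) and -0.10 (-0.29 to 0.09) in the same order. Of 10 genes of the neurogliaform and ivy list measured, Npy was past 2-fold in the total knockout, Eya4 (1.09) in the astrocyte knockout, and Kit, Npy and Ndnf in the neuron knockout.

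Spock1, a proteoglycan of the extracellular space, was low in the neuron knockout. It stood at 450, 437, 468 and 84.0 CPM, from 470, 817, 473 and 125 UMIs, and a UMI was present in 92 of 103, 211 of 260, 105 of 129 and 49 of 160 Lamp5 nuclei. The neuron-knockout difference from wild type was -2.41 (-2.72 to -2.14), and -1.63 (-1.98 to -1.29) in male nuclei only. Spock1 was similarly low in that library in Lamp5-zero nuclei (-1.89), somatostatin nuclei (-2.05), Vip nuclei (-1.74) and excitatory nuclei (-1.98). Hspa8, a constitutive chaperone, was past 2-fold lower in all 3 knockouts' Lamp5 nuclei (356, 153, 162 and 136 CPM) and was lower in somatostatin nuclei (-0.91, -1.09 and -1.09) and excitatory nuclei (-0.82, -1.09 and -1.12) as well. In male nuclei only its total-knockout ratio in Lamp5 nuclei was -0.78 (-1.12 to -0.44), not past 2-fold.

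Edaradd, an adaptor for death-domain receptors of the ectodysplasin pathway, was higher in each knockout's Lamp5 nuclei, at 24.0, 62.6, 57.4 and 78.6 CPM, with UMIs in 21, 73, 35 and 64 nuclei. Among Lamp5 nuclei with 0 Lhx6 UMIs it stood at 11.5, 50.9, 63.5 and 73.2 CPM. In Lamp5-zero nuclei Edaradd stood at 12.9, 11.6, 14.6 and 17.2 CPM, where the log2 differences from wild type were -0.15 (-0.67 to 0.40), 0.18 (-0.43 to 0.81) and 0.41 (-0.15 to 1.00). Whether the classes differ in this was not tested. In excitatory nuclei it lay at 0.28 CPM or less.

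Zfp804b, a zinc finger gene, differed by both Lhx6 and library (1.31, SE 0.27, edgeR adjusted p = 0.014 with Lhx6). That call was lost without the astrocyte library and with no library block (1.23 in both). In Lhx6-positive nuclei it stood at 3027, 1571, 3183 and 2697 CPM, and in nuclei with 0 Lhx6 UMIs at 499, 1133, 1128 and 1863. Over all Lamp5 nuclei the levels were 1281, 1429, 1472 and 2360 CPM, a neuron-knockout ratio of 0.88 (0.79 to 0.97), and 1.94 (1.74 to 2.14) in male nuclei only. In Lamp5-zero nuclei Zfp804b was lower than wild type in that library (-0.58). Chrm2 was higher in the neuron knockout (1.29, 1.04 to 1.56), from 560 UMIs in 18 nuclei against 160 UMIs in 10 nuclei of wild type, so few nuclei carry it. In male nuclei only that ratio was 0.54 (0.22 to 0.88).

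Grm8 was the gene of the 17 glutamate receptors measured that was past 2-fold above wild type in all 3 knockouts, at 28.8, 172, 125 and 76.6 CPM with UMIs in 12, 54, 18 and 18 Lamp5 nuclei. Grm7 and Grm3 were past 2-fold higher in the total knockout and not in the others. Genes of other cell types were higher in that library as well: Mbp of oligodendrocytes and Meis2 and Foxp2 of the lateral eminence were past 2-fold above wild type, while Tshz1, the other lateral eminence factor measured, was not (-0.22). Their part in the receptor values was not tested. Nuclei with at least 3 UMIs of 5 spiny neuron genes numbered 2 of 103, 19 of 260, 1 of 129 and 0 of 160 Lamp5 nuclei.

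Rarb, a retinoic acid receptor of striatal neurons, stood at 43.1, 143, 3.96 and 4.03 CPM in Lamp5 nuclei, from 10, 39, 4 and 5 nuclei. Its pooled level of 59.7 CPM passed the 46.3 CPM of other barcodes, the limit for naming, through the total-knockout library alone. Without the nuclei that carry spiny neuron genes its astrocyte and neuron ratios moved from -3.22 and -3.20 to -0.85 and -0.84. The wild-type Lamp5 nuclei kept 8 of their 45 Rarb UMIs without the 2 such nuclei among them. Hbb-bs, a beta-globin whose reads can be shared with its near-identical neighbour Hbb-bt, stood at 1.92, 16.6, 70.3 and 4.03 CPM, and the 71 UMIs of the astrocyte knockout came from 5 nuclei. Vascular markers were highest in the Lamp5 nuclei of that library too, and their part in the Hbb-bs value was not tested.

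The rule for the genes farthest from wild type named others. Its limit on level pooled the 4 libraries, so a gene could pass through the library where it was high. Dach1 passed at 64.7 CPM against 58.0 CPM in other barcodes. It stood at 126 CPM in the total knockout and at 30.7 to 33.5 CPM elsewhere, so it was named through the total knockout alone. Epb41l2 passed at 29.9 CPM against 24.7 CPM, and stood at 12.5, 38.5, 43.6 and 22.2 CPM in library order. Only the total and astrocyte knockouts, where it is named as higher, lay above that limit. Rpl27 passed at 25.1 CPM against 21.6 CPM, and stood at 36.4, 32.1, 9.90 and 18.8 CPM. Only the wild-type and total-knockout libraries lay above its limit. In the total knockout Dach1 (1.88) and Epb41l2 (1.57) were higher, and 4930555F03Rik (-1.52), Adamts12 (-1.77) and Gm2516 (-1.50) were lower. In the astrocyte knockout Akap12 (1.86), Epb41l2 (1.75) and Tmtc2 (1.03) were higher, and Col14a1 (-1.75), Rpl27 (-1.80) and 9330158H04Rik (-2.40) were lower. In the neuron knockout Cpeb2 (0.93) and Tmtc2 (0.79) were higher, and Mei4 (-2.06) and Apbb1ip (-2.20) were lower. In male nuclei only, Dach1 (3.50) and Akap12 (3.20) lay farther from wild type, and Adamts12 (-1.12), Col14a1 (-0.60), Mei4 (-1.21), Apbb1ip (-1.25) and Tmtc2 (0.73 in the astrocyte and 0.26 in the neuron knockout) lay nearer. Dach1 was also higher in the total-knockout library's Lamp5-zero nuclei (1.23) and somatostatin nuclei (1.18).

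**Figure D5:**
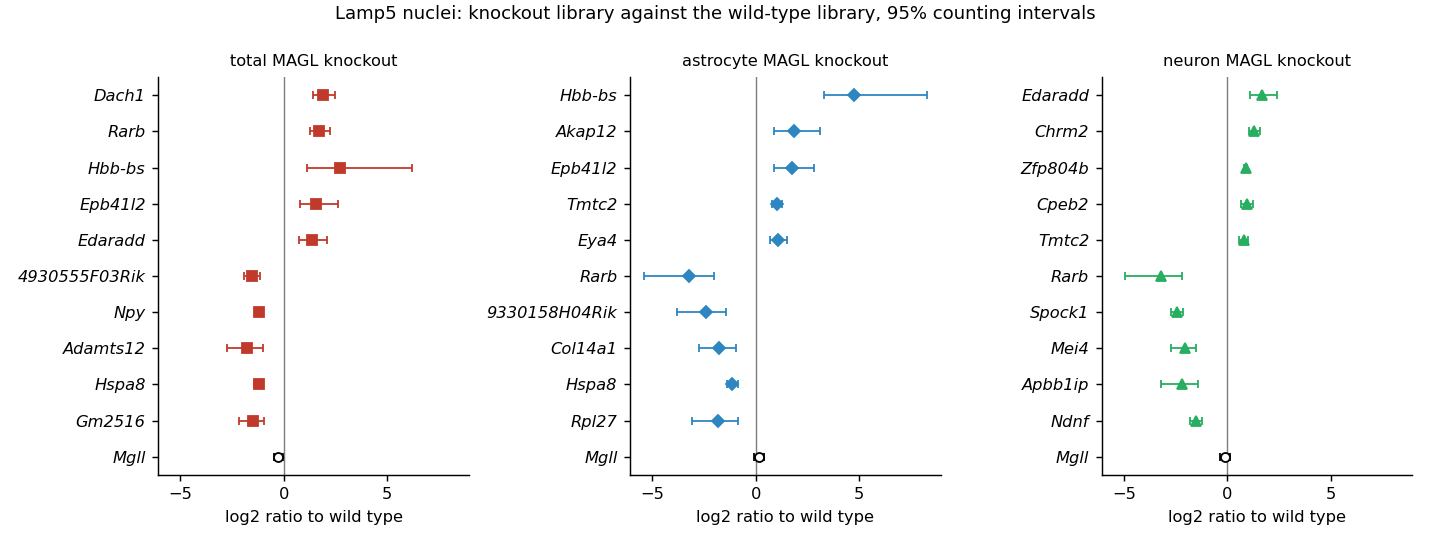
Log2 ratio of each knockout library to the wild-type library in Lamp5 nuclei for the 5 genes in each direction whose 95% counting interval lies farthest from 0, with Mgll as open circles. Bars are counting intervals only. Spock1 lies at -2.41 in the neuron knockout, Npy at -1.21 in the total knockout and Mgll between -0.26 and 0.17.

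Lamp5 lies on chromosome 2 at 136052239 to 136069917 (plus strand) in GENCODE M21 on GRCm38, the same assembly as the mm10 named in the submitters' processing notes. Lhx6 lies on chromosome 2 as well, at 36081953 to 36105408 (minus strand). Ndnf (65671590 to 65712326), Npy (49822710 to 49829507) and Mgll (88724412 to 88828360) lie on the plus strand of chromosome 6. Spock1 (57421195 to 57908332) and Edaradd (12472632 to 12520438) lie on the minus strand of chromosome 13. All 7 are protein-coding, and the deposited counts are per gene.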

How the data were processed

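Nuclear RNA was counted in 4 libraries of mouse hippocampus, 1 per genotype. The authors deposited whole-number UMI counts per gene and barcode, with no normalization in the values. Cell Ranger ARC 2.0.0 and mm10 are named in the submitters' processing notes, and the sources used here do not give strand use. Deposited barcodes held 400 to 5998 genes, so they had been filtered. The libraries were joined on 20211 of 22989 gene symbols.

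Lamp5 nuclei were found by the rule given above, and the members, gene lists and tests were chosen with earlier results of these data known. UMIs were summed per library and class, giving the 4 library sums compared. Class differences were tested with edgeR 4.0.16 in R 4.3.3 (TMM, filterByExpr, quasi-likelihood test, library as a block, Benjamini-Hochberg 0.05). The 7 genes of the rule, and Lhx6 in the comparison within Lamp5 nuclei, were left out of counts of calls. The procedure was tested on counts simulated from a pooled profile, with no difference between libraries except in total UMIs. The real libraries also differ in genotype and sex, which these simulated data do not hold. Library ratios used genes with at least 100 UMIs, a pseudocount of 1 count and exact conditional binomial intervals at 95%. Thinning drew 3000 UMIs per nucleus. Excitatory nuclei had at least 3 UMIs of Slc17a7 and 0 of Gad1 and Gad2. Doublets were called with Scrublet in scanpy 1.11.5 at 0.8% per 1000 barcodes. DESeq2 1.42.0 was an alternative.

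Named genes were the 12 per direction with the largest fold among those called, on 1 side in all 4 libraries and with at least 100 UMIs in the higher class, leaving out unnamed gene models. In each knockout they were the 5 per direction whose interval lay farthest from 0. They were taken among genes whose level in Lamp5 nuclei, pooled over the 4 libraries, was at least that in other barcodes. Genes of 30 lists were also named. Results for some genes are not reported here, and counts over genes include them. The sources used here do not say how many animals gave each library, 3 of which held nuclei of both sexes. The p-values measure how class differences varied between these libraries.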

Additional observations from a re-analysis of the deposited data

Results flagged for a closer look

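The 4 libraries' values were screened in 98 sets, nearly all of log2 ratios and the others of shares of nuclei, for a library far from the other 3 (gap over range above Dixon's 95% critical value), which chance flags in about 1 of 20 sets, and 2 were found. Ndnf in Lhx6-positive against Lhx6-zero Lamp5 nuclei stood at -0.14 in the total-knockout library, against -7.56 in wild type, -6.62 in the astrocyte knockout and -6.47 in the neuron knockout. The other 3 libraries had 0 Ndnf UMIs in Lhx6-positive nuclei, so their ratios are set by the pseudocount and the size of the sums and are no measured sizes. The total-knockout value came from 18 Ndnf UMIs in 2 of 10 Lhx6-positive nuclei, and 1 of these 10 nuclei was marked as a doublet. Grpr, the receptor for gastrin-releasing peptide, in Lamp5 against somatostatin nuclei stood at -2.87 in wild type, against -4.31, -4.49 and -4.38 in the total, astrocyte and neuron knockouts, with 1 UMI in all Lamp5 nuclei and 117 in somatostatin nuclei. That 1 UMI lay in the wild-type library and the other 3 ratios are set by the pseudocount, so these values show no difference between libraries.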

How the results depend on the processing

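The Lamp5 share depends on the UMI limits. In library order it was 15.4%, 17.7%, 19.2% and 19.2% with at least 1 Lamp5 UMI, 6.50%, 3.45%, 6.18% and 6.76% with at least 3, 13.8%, 11.9%, 15.7% and 16.2% with at least 5 Gad1 and Gad2 UMIs, and 6.92%, 5.89%, 8.82% and 8.01% after thinning. The Lhx6 share was 29.1%, 19.6%, 29.5% and 35% with at least 1 Lhx6 UMI and 0%, 0.402%, 2.33% and 0.633% after thinning, where 0 allows up to 3.55%. Mgll ratios in male nuclei only were -0.55, -0.12 and -0.35, and no other alternative moved them beyond their interval. Of the 30 ratios of genes named in the knockouts, 14 moved beyond their interval in male nuclei only, the setting matched to the total knockout, which held no female Lamp5 nuclei.

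Genes past 2-fold in the total, astrocyte and neuron knockouts numbered 174, 143 and 170 of 6981 (2.49%, 2.05% and 2.44%). They numbered 405, 387 and 413 of 9294 (4.36%, 4.16% and 4.44%) with at least 50 UMIs. With at least 200 they numbered 78, 37 and 71 of 4506 (1.73%, 0.821% and 1.58%). After thinning they numbered 80, 68 and 89 of 3472 (2.30%, 1.96% and 2.56%), near the main shares. With at least 1 Lamp5 UMI they numbered 343, 236 and 281 of 9039 (3.79%, 2.61% and 3.11%). With at least 3 Lamp5 UMIs they numbered 109 and 87 of 4765 (2.29% and 1.83%) in the total and astrocyte knockouts. With male nuclei only they numbered 256 of 5180 (4.94%) in the astrocyte knockout. Against Lamp5-zero nuclei, 1227 lower genes of 11752 became 795 of 11752 with DESeq2 and 763 of 8651 after thinning. Within Lamp5 nuclei, 44 genes higher and 50 lower of 6089 with Lhx6 became 129 and 210 of 7725 with at least 1 Lamp5 UMI. They became 202 and 246 of 7500 with at least 1 Lhx6 UMI and 14 and 16 of 6089 with no library block. After thinning 33 were higher and 32 lower of 2479 genes, so fewer calls came from fewer genes tested. The lower genes became 28 of 6089 with DESeq2 and 199 of 18327 with no filter. Leaving out 1 library gave 19 to 45 higher and 21 to 67 lower, with 19 and 21 without wild type.

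Named genes in the 3 comparisons between classes (24 each) lost no call in the alternatives in which they could be tested. They were picked for the largest folds among called genes, so this was largely set by the choice. Of the other called list genes, 28 of 93, 19 of 74 and 20 of 82 (against Lamp5-zero, somatostatin and Vip nuclei) lost theirs in at least 1, as did all 6 within Lamp5 nuclei. Against all inhibitory nuclei with 0 Lamp5 UMIs, the calls of Kcnq5 (0.40) and Grin3a (-0.55) reversed. Cort (-1.56), not called in the main fit, was called there on the other side of 0. Against somatostatin nuclei Penk (-2.05), also not called in the main fit, was called on the other side without spiny-marked nuclei. In that comparison 1 gene not reported here changed sides with doublets and nuclei over 5% mitochondrial left out. In the astrocyte knockout 9330158H04Rik (0.57) reversed with at least 1 Lamp5 UMI and Rarb (0.47) with at least 3. The causes of these changes were not tested. With Lhx6-zero nuclei only, an alternative chosen after seeing the data, Mgll ratios were -0.29, 0.05 and -0.25. In that setting 171, 156 and 186 of 5757 genes (2.97%, 2.71% and 3.23%) were past 2-fold.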
